A study of Schizosaccharomyces pombe with 8 samples.

Results

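On fission yeast chromosome III, the 3 kb from 208 to 211 kb cover most of SPCC1235.17 and the start of SPCC1235.18, a pair of genes flanked by the hexose transporter genes ght6 and ght5. Ligated DNA ends recovered with the meiotic protein Rec27 were frequent here. The locus was chosen by its count of ends in these same libraries, so the density of ends is given as a description with no test. A pair of ligated ends was a member when at least 1 end lay in the 3 kb. Members were 431 of 101984 pairs of the interacting library and 730 of 123434 pairs of the de-crosslinked library. Pairs with both ends within 500 bp of those of another pair were joined into 1 ligation event, and the pairs of an event are called its copies. Members then made up 166 of 35511 interacting events and 335 of 56018 de-crosslinked events. Exact repeats of both positions were 1 of the interacting and 13 of the de-crosslinked member pairs. Whether the other copies stem from 1 junction or from separate ligations was not tested.

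Both libraries came from Schizosaccharomyces pombe of genotype pat1-114 rec12D that carries GFP-tagged Rec27. The allele pat1-114 is used to start meiosis in a whole culture by a rise in temperature, and rec12D deletes the gene of the enzyme behind meiotic DNA breaks, in both libraries alike. Cultures starved of nitrogen for about 18 h received nitrogen at 34 °C and were fixed in 1% formaldehyde after 3.5 h, and Rec27 was precipitated from chromatin sheared to about 1000 bp. DNA was ligated on the beads, still crosslinked, to give the interacting library, or after the crosslinks had been reversed to give the de-crosslinked library. With 1 library per group, each test compares a pair of libraries rather than conditions, and every interval covers only the error of counting. The other 6 samples of the series were not analysed here, and no sample label names an input or an untagged strain, so how far the many ends reflect binding of Rec27 was not tested.

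Hexose transporters carry glucose and related sugars through the plasma membrane. Fission yeast has a family of them, ght1 to ght8, of which Ght5 is a high-affinity glucose transporter needed when glucose is scarce. Rec27 belongs to the linear elements, protein structures on the chromosomes of fission yeast in meiotic prophase, and linear element proteins collect at sites of frequent meiotic breaks. The RefSeq annotation calls the products of SPCC1235.17 and SPCC1235.18 uncharacterized.

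The 4 sequences that follow are 200 bp of the plus strand of RefSeq assembly ASM294v3. The first 3 are centred on the 100 bp with most de-crosslinked ends in each kb of the locus. The last is the pair of neighbouring 100 bp bins with fewest de-crosslinked ends between the second and the third. They are shown because the places with most ends have a base composition in common that the choice of the locus did not use. Capitals mark runs of at least 8 purines (A or G).
the first, chr3:208051-208250: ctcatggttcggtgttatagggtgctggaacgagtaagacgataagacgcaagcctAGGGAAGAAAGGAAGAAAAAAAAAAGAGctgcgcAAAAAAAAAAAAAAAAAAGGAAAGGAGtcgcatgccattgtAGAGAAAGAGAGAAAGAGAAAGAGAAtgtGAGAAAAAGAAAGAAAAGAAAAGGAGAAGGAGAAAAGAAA
the second, chr3:209051-209250: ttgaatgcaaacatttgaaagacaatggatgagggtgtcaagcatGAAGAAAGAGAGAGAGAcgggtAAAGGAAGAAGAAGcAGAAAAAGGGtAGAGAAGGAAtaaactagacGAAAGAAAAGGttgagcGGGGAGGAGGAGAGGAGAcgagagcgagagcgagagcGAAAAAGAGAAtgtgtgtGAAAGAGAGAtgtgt
the third, chr3:210051-210250: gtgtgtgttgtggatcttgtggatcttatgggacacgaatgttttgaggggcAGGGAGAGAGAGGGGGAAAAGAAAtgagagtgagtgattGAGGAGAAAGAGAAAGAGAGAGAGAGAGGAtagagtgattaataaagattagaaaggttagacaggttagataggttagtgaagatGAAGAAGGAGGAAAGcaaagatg
the low one, chr3:209501-209700: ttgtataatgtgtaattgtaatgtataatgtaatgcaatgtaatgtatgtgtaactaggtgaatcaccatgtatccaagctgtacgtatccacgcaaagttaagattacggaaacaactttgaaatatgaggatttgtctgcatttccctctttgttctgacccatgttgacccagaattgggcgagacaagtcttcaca
Interacting ends numbered 78 in the first sequence, 61 in the second, 58 in the third and 12 in the low one. De-crosslinked ends numbered 104, 178, 76 and 6 in the same order. Purines made up 81%, 81% and 76% of the 3 sequences with many ends and 50.5% of the low one. Runs of purines took 121, 101 and 69 of the 200 bases of the first 3, and 0 of the low one. GC content differed less, at 38%, 44.5% and 42% against 37%. The longest purine run in the locus has 72 bases, at chr3:208211-208282.

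Ends were many times denser than in a typical kb of the genome. The interacting library had 443 ends in the locus (95% Poisson interval 403 to 486), or 148 per kb, which is 12.3 times its median 1 kb bin of 12 ends. The de-crosslinked library had 747 (694 to 803), or 249 per kb, which is 16.6 times its median bin of 15 ends. These ends came from 166 interacting and 335 de-crosslinked events, so the Poisson intervals, which treat ends as independent, are too narrow. Counted as events the multiples were 11.1 (interacting) and 16.0 (de-crosslinked), so they did not rest on copies alone. Events of a single pair were 65.7% of the interacting and 63.0% of the de-crosslinked events of the locus.

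The limits of the locus follow a threshold of 10 times the median bin of the de-crosslinked library, that is 150 ends per kb, which 0.668% of the 12573 bins of the genome reached. A run of such bins, joined across a single bin below the threshold, is called a hotspot here. The locus ranked 6 by its total of de-crosslinked ends. Hotspots differ in length, so this is not a rank by ends per kb. Its 3 bins held 179, 142 and 122 interacting ends and 296, 301 and 150 de-crosslinked ends, so the last bin lay exactly on the threshold. Just outside, the next bin on the ght6 side held 56 interacting and 58 de-crosslinked ends, and that on the ght5 side held 68 and 83. Each end carries a class, hot or cold, given by the authors. Every end in the locus was hot, and the run of hot ends around it reached over 8136 bp, from 205659 in ght6 to 213794 in ght5.

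**Figure D1:**
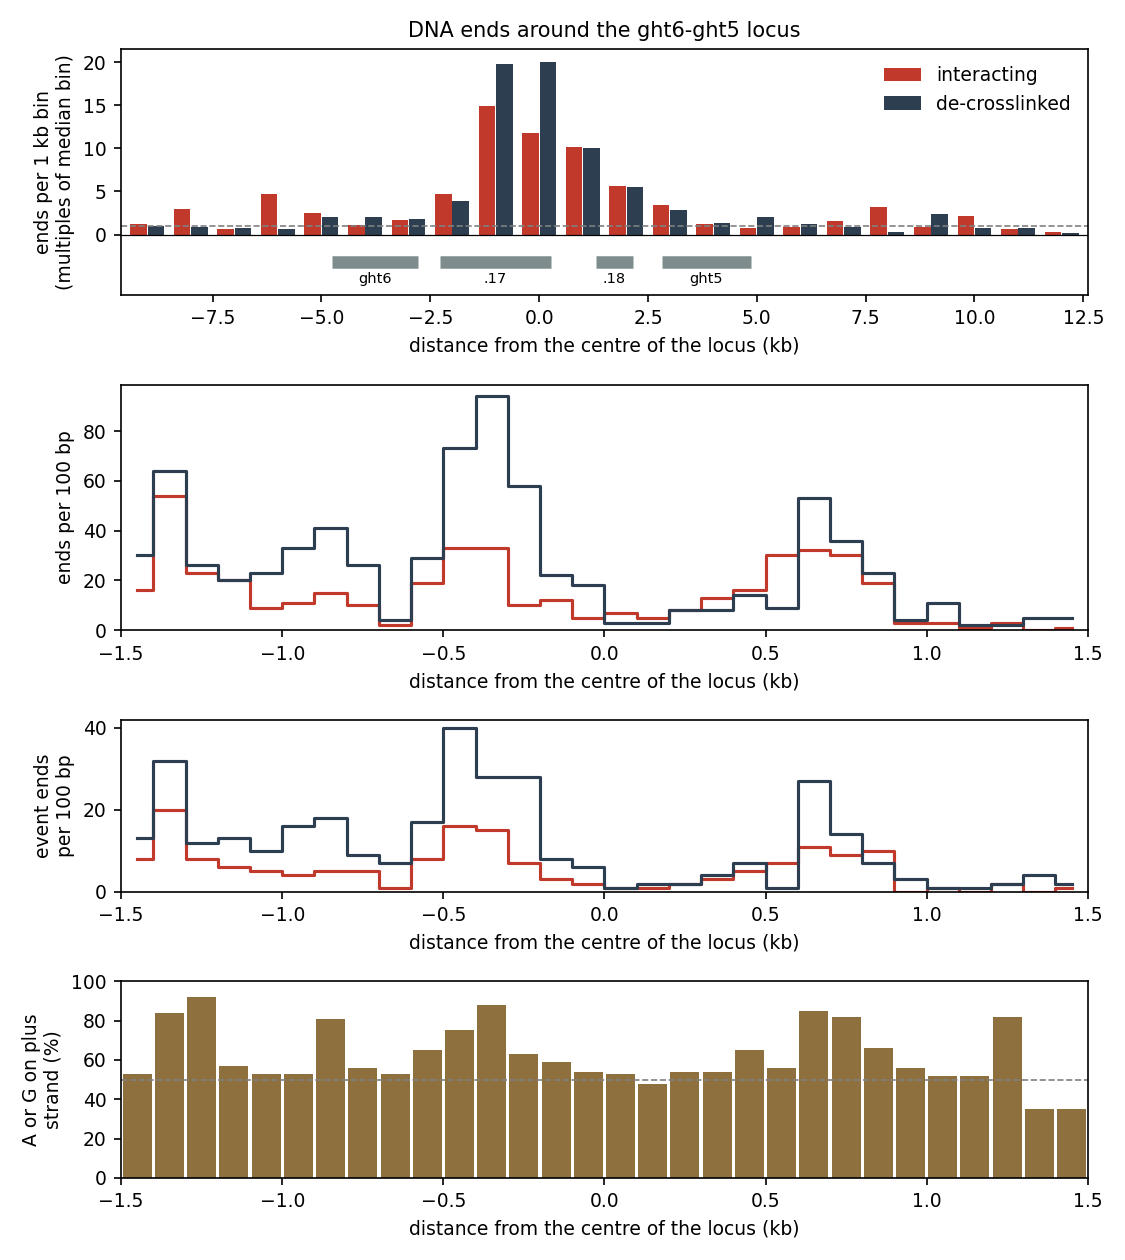
Ends around the locus by distance from its centre in kb, for the interacting (red) and de-crosslinked (dark) libraries: ends per 1 kb bin as multiples of each library's median bin with genes as grey bars (top; SPCC1235.17 and SPCC1235.18 are shown by their last digits), ends and event ends per 100 bp (middle), and the share of A or G on the plus strand (bottom, dashed line at 50%). Of the 30 bins of 100 bp, 8 have at least 70% purines.

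The density was highest on SPCC1235.17 and in the gap after it, and lower on the transporter genes. SPCC1235.17 (207225 to 209765) held 131 interacting and 245 de-crosslinked ends per kb over its whole length. The gap beside it, up to SPCC1235.18, held 148 and 162 per kb. SPCC1235.18 (210809 to 211648) held 72.6 and 81.0 per kb, most of them past the end of the locus. The gap between ght6 and SPCC1235.17 held 27.6 interacting and 5.92 de-crosslinked ends per kb. The glucose and fructose transporter gene ght6 (204733 to 206717) held 17.6 interacting and 30.2 de-crosslinked ends per kb, which is 1.47 and 2.02 times the median bin. The gene ght5 (212313 to 214376) held 35 interacting and 73 de-crosslinked ends, or 1.41 and 2.36 times the median bin per kb. Only 83.0% of the bases of ght5 lie in a 50 bp word found once in the genome, against 100% for the locus and for ght6, and neither library had an end outside such words.

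Elsewhere in the family the density was also below that of the locus. Further along chromosome III, ght8 held 1.26 (interacting) and 1.78 (de-crosslinked) times the median bin, and ght1 held 1.89 and 2.93 times. On chromosome I, ght3 held 2.12 and 2.09 times. On chromosome II, ght2 held 2.39 and 3.77 times and ght4 held 3.36 and 3.77 times. The remaining gene, ght7, held 145 interacting ends (7.41 times) and 35 de-crosslinked ends (1.43 times), but 16 and 18 when counted as events.

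Within the locus, the place with most ends is described for each kb, so the count of 3 places and their spacing follow from that choice. The bin from 208101 to 208200 held 54 interacting and 64 de-crosslinked ends. The bins from 209001 to 209200 held 33 and 33 interacting ends, and 73 and 94 de-crosslinked ends. The bin from 210101 to 210200 held 32 interacting and 53 de-crosslinked ends. Between the first and second of these places, the bin from 208601 to 208700 held 15 interacting and 41 de-crosslinked ends, more than either bin beside it. The bin from 208801 to 208900 held 2 and 4. Over the 30 bins of 100 bp, interacting ends tracked de-crosslinked ends with Pearson r 0.73 and Spearman rho 0.77 (0.85 and 0.78 as events). Neighbouring bins share junctions and sequence, so these values only describe the profile.

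The libraries weighted these places differently. The stretch of SPCC1235.17 inside the locus held 65.0% of the interacting ends (288 of 443, Clopper-Pearson interval 60.4 to 69.5) and 76.0% of the de-crosslinked ends (568 of 747, 72.8 to 79.1). The gap beside it held 34.8% (30.3 to 39.4) and 22.6% (19.7 to 25.8). As events the gap held 49 of 166 interacting and 69 of 335 de-crosslinked ends. Single events weigh on these shares, with 25 interacting pairs of 1 event in the gap and 36 de-crosslinked pairs of 1 event on SPCC1235.17. Pairs gather in events, so the intervals over ends are too narrow, and no test was made.

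Bins rich in purines held more ends than the others. At least 70% A or G on the plus strand was found in 8 of the 30 bins, or 26.7%, whereas 1.74% of the 125717 windows of 100 bp in the genome have 70% or more of purines or of pyrimidines. These 8 bins averaged 27.9 interacting and 48.6 de-crosslinked ends, against 10 and 16.3 in the other 22. The groups overlapped, since the bin from 210701 to 210800 is 82% purine and held 3 interacting and 2 de-crosslinked ends. Ends per bin had a Pearson r with the purine share of 0.70 (interacting) and 0.65 (de-crosslinked), and with GC content of 0.0015 and 0.12, as a description over these 30 neighbouring bins.

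Such windows also held more ends elsewhere. Outside the 20 hotspots with most ends, the 2042 windows with 70% or more of one base class averaged 4.79 interacting and 6.31 de-crosslinked ends, against 1.52 and 1.79 in the other 123115 windows. The ratios were 3.15 and 3.53, and 4.08 and 3.96 when events were counted. The part of base composition in the density of the locus was not tested.

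Motifs of meiotic and stress transcription factors were searched on both strands. The M26 heptamer ATGACGT, known from a fission yeast recombination hotspot, had 0 matches in the locus, and 6.28% of the 4189 genome windows of 3 kb hold it. The CRE letters TGACGTCA had 0 matches, and 1.07% of windows hold them. The stress response element CCCCTC had 5 matches, where 25.0% of windows hold any and the median window holds 0. Of these, 4 lie on the minus strand, and read as GAGGGG, purines only, on the plus strand. The CCAAT box had 5 matches and the median window has 7.

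Where the partner ends lay was compared for events with a partner at least 5 kb away or on another chromosome, 162 interacting and 332 de-crosslinked events. Near partners, from 5 to 200 kb away, were more frequent in the interacting library. They made up 12.3% of its events (20 of 162, 7.71 to 18.4), against 3.31% of the de-crosslinked events (11 of 332, 1.67 to 5.85). The difference of 9.03 points passed a two-sided Fisher's exact test (p = 0.000234, adjusted p = 0.00210 over 9 tests). All other ends of each library, counted as events, give the level to compare: 3.19% (interacting) and 3.10% (de-crosslinked) of them lie in this range. Near events were 3.87 times this level among interacting events (2.37 to 5.98) and 1.07 times among de-crosslinked events (0.534 to 1.91). With every pair counted, the near shares were 26.9% and 7.75%, a difference of 19.1 points.

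Partners on chromosomes I and II were correspondingly less frequent in the interacting library. They made up 70.4% of its events (114 of 162, 62.7 to 77.3), against 81.3% of the de-crosslinked events (270 of 332, 76.7 to 85.4). The difference was -11.0 points (two-sided Fisher's exact test, p = 0.00790, adjusted p = 0.0356). These chromosomes hold 80.8% of the other interacting ends and 81.4% of the other de-crosslinked ends. The difference varied in size between the 3 kb, and whether the kb differ was not tested. It was -5.69 points in the first kb, which has most interacting ends (Fisher's exact test, p = 0.401), and -11.5 points in the second, which has most de-crosslinked ends (Fisher's exact test, p = 0.126). In the last kb it was -26.2 points (Fisher's exact test, p = 0.00270). These p-values are unadjusted, and the first and last kb were added after the data were seen. They rest on 74, 53 and 40 interacting and 150, 131 and 62 de-crosslinked events. The shares per kb given further below use other numbers, since events are placed there by the median of their copies.

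The excess of near partners lay mainly under 50 kb. Among interacting events, those 5 to 10 kb away were 42.9 times the level of library ends (5 events, 13.9 to 100.1), those 10 to 20 kb away 13.4 times (3 events, 2.76 to 39.1) and those 20 to 50 kb away 5.62 times (7 events, 2.26 to 11.6). At 50 to 100 kb the multiple was 2.33 (3 events, 0.481 to 6.82), and at 100 to 200 kb it was 0.872 (2 events, 0.106 to 3.15). De-crosslinked events in these 5 ranges numbered 1, 0, 4, 1 and 5. The count of 0 allows a share of up to 0.904% of the 332 events, taking 3 counts as the limit. From 50 to 200 kb the interacting intervals include 1, so an excess was not detected, and one within these intervals could have been missed.

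**Figure D2:**
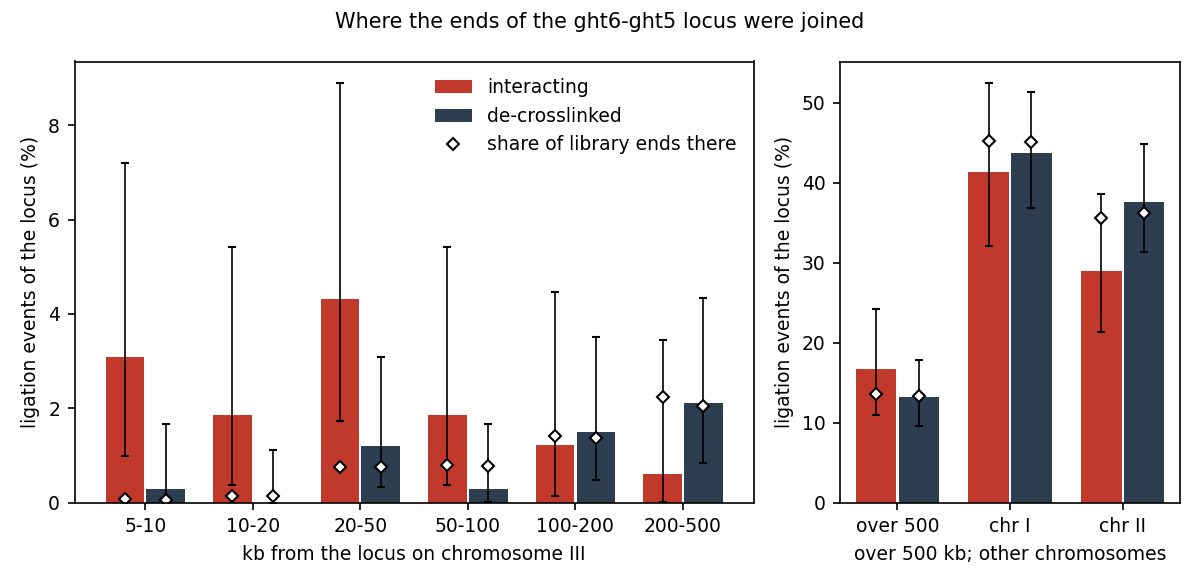
Share of ligation events of the locus by place of the partner end, for 162 interacting (red) and 332 de-crosslinked (dark) events. Bars are percent of events with 95% Poisson intervals, diamonds the share of that library's other ends in the same place, and the panels differ in scale. Interacting bars stand above their diamonds in each range from 5 to 100 kb.

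Interacting events had near partners on both sides. From 5 to 200 kb, 7 interacting events lay on the ght6 side and 13 on the ght5 side, against 0 and 11 de-crosslinked events. Ends available in these ranges were also uneven, with 838 interacting event ends on the ght6 side and 1421 on the ght5 side, and 1332 and 2129 de-crosslinked ones.

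On the ght6 side the interacting partners reached 59.1 kb. The closest lay between mug146 and ght6, 5.13 kb away (16 pairs). Next came mug146, a gene induced in meiosis, at 6.18 kb (8 pairs), and mpc1, for a subunit of the mitochondrial pyruvate carrier, at 9.02 kb (3 pairs). The exocyst gene sec6 was joined at 13.5 kb (1 pair) and the chromatin remodeller gene fft2 at 25.5 kb (14 pairs). The last 2 lay between SPCC320.03 and SPCC1235.01 at 36.1 kb (5 pairs) and next to hem15 at 59.1 kb (1 pair).

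On the ght5 side most close partners fell between dga1, a diacylglycerol acyltransferase gene, and wtf4, a meiotic drive gene. Interacting events numbered 4 there, at 217400, 217573, 219276 and 220456, with 10, 25, 7 and 3 pairs. The de-crosslinked library had 1 event there, at 217394, with 1 pair. The first 2 partners lie close together, but their ends in the locus, at 208650.5 and 209985, do not, so they are separate events. Unique words cover 55% of the bases from 219001 to 220000 and 47.4% of the next kb, and the pseudogene wtf3 lies there.

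The surroundings of ght1 were joined in both libraries, each time by few pairs. Interacting events ended at 236313 and 236852, between ght1 (232288 to 235195) and SPCC1529.01, with 1 pair each. De-crosslinked events ended at 232165, 234775 and 235624, all in ght1 or within 500 bp of it, with 1, 1 and 3 pairs. The gene gcd1 had 1 interacting event at 33.4 kb. Between SPCC794.04C and SPCC794.06 there were 2 interacting events, at 42.5 and 47.1 kb, and 1 de-crosslinked event, at 44.9 kb. Neither library had an event of 5 kb or more that ended in ght8. Under 5 kb, an interacting event of 2 pairs ended in ght6 and a de-crosslinked event of 1 pair in ght5.

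**Figure D3:**
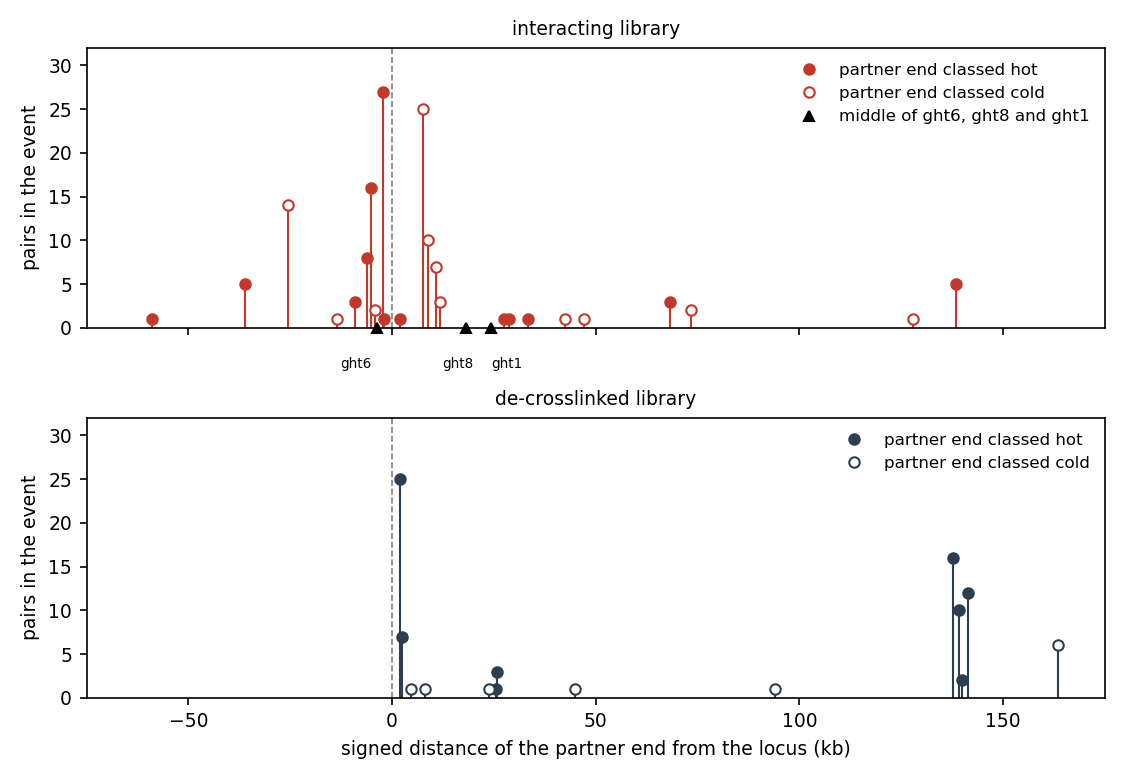
Ligation events of the locus with a partner within 200 kb on chromosome III, by signed distance of the partner in kb, negative towards ght6. Height is the number of pairs in the event, filled points are partners classed hot by the authors and open points cold, and triangles mark ght6, ght8 and ght1. Interacting events lie on both sides, with 7 at -5 kb or beyond, while the de-crosslinked library has 0 there and 4 events near 140 kb.

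About 140 kb away, the region of dis1, for a microtubule-associated protein, and pil1, for an eisosome protein, was joined in both libraries. The interacting library had 1 event there, at 347568, with 5 pairs. The de-crosslinked library had 4, at 347905.5, 347970.5, 348101.5 and 350917.5, with 16, 10, 2 and 12 pairs. The hotspot from 347001 to 348000 between these genes took 1 interacting event, where its share of the other ends gives 0.151, and 2 de-crosslinked events, where its share gives 0.315.

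A few events held many of the pairs. Events of 5 pairs or more numbered 22 among interacting events, with 46.9% of the pairs of the locus, and 26 among de-crosslinked events, with 31.6%. The interacting events with most pairs had 27, 25, 16 and 16 pairs. The first joined the locus to SPCC1235.17 over 2.12 kb, but its copies run from 208138 to 210112 in the locus, so linking may have chained several junctions. The next lay between dga1 and wtf4. Of the 2 events of 16 pairs, 1 lay between mug146 and ght6 and 1 in bfr1, an ABC transporter gene, at 712043.5 on chromosome III. The 3 de-crosslinked events with most pairs had 36, 25 and 16 pairs. The first joined the locus to mvd1, a gene of the mevalonate pathway, at 3042675.5 on chromosome I. The next joined ends in the locus, from 208062 to 210375, to partner ends from 207421 to 210368, in and beside the locus. Linking may have chained several junctions here too. The last was between dis1 and pil1.

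Partners classed hot were about as frequent in both libraries. They made up 49.4% of the interacting events (80 of 162, 41.4 to 57.3) and 50.9% of the de-crosslinked events (169 of 332, 45.4 to 56.4). The difference of -1.52 points did not pass the test (two-sided Fisher's exact test, p = 0.774, adjusted p = 0.985). It was -12.8 points with every pair counted (41.0% and 53.8%, Fisher's exact test, p = 4.42e-05) and 3.03 points with the locus widened by 1000 bp on each side. Of all event ends, 35.4% (interacting) and 38.6% (de-crosslinked) were hot, below both shares at the locus. Near partners were hot in 10 of 20 interacting and 6 of 11 de-crosslinked events, and partners on chromosomes I and II in 56 of 114 and 140 of 270.

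The share of hot partners was also set against other hotspots. The other 19 of the 20 largest had 45.2% among 2502 interacting events and 44.9% among 5694 de-crosslinked events. The locus stood 4.18 points (Fisher's exact test, p = 0.329, adjusted p = 0.592) and 6.05 points (p = 0.0357, adjusted p = 0.107) above them, and neither passed after adjustment. Single hotspots among these 19 ran from 37.2 to 70.4% of interacting events, a range that holds the locus, and from 37.2 to 50% of de-crosslinked events, just below its 50.9%.

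By annotation, partner ends were in protein-coding genes in 58.6% of interacting events (50.6 to 66.3), where 72.1% of all event ends lie, and in 61.1% of de-crosslinked events (55.7 to 66.4), where 71.5% lie. Genes of long noncoding RNAs that overlap no coding gene took 27.2% (20.5 to 34.7) and 28.0% (23.2 to 33.2), where 16.4% and 18.0% of all event ends lie. No test was made of these shares.

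Partners in other hotspots numbered 11 interacting events, on 7 of the other 19 largest, which is 1.87 times the level of library ends (0.935 to 3.35). De-crosslinked events numbered 24, on 14 of them, 1.41 times (0.902 to 2.09). Over all 49 other hotspots there were 16 interacting events, 1.88 times (1.07 to 3.05), and 36 de-crosslinked events, 1.50 times (1.05 to 2.08). The hotspot of mug115 and esc1, for a transcription factor, had 3 interacting and 2 de-crosslinked events. That of gti1 had 1 and 3, hsr1 had 1 and 2, SPAC17A2.11 had 2 and 2 and ste7 had 1 and 0. That of pfl2 had 1 and 1, and that between tlh2 and the end of chromosome II had 2 and 0. The hotspot at ste11, the gene of a main regulator of sexual differentiation, had 0 and 1, and gsf1 had 0 and 3. Single hotspots were not tested.

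In windows of 10 kb, 3 or more interacting events reached 6 windows (0.477% of 1258) and 3 or more de-crosslinked events reached 18 (1.43%). The window of pfl2 on chromosome I had most, with 4 interacting and 6 de-crosslinked events. Those of fhn1 on chromosome II and of oca2 and gnr1 on chromosome III had 3 in each library. The window of mug115, esc1 and pso2 had 3 and 1. The 2 windows that hold the locus and its flanks had 3 interacting events each, and 0 and 1 de-crosslinked events. Among the 15 windows with 3 or more de-crosslinked events alone were those of gti1, hsr1, ste11, ssn6, ght1, and rad26 with atd1, where the interacting library had 0 to 2. The limit was the same for 162 interacting and 332 de-crosslinked events, so the larger library reaches it more easily. Windows also differ in ends, and these 6 held 570, 627, 593, 292, 236 and 208 de-crosslinked event ends in the same order. Whether any window is particular to a library was not tested.

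Partner genes were counted from events of 5 kb or more, or between chromosomes, that ended in a gene or within 500 bp of it. Of all protein-coding genes, 2.84% had an interacting and 5.73% a de-crosslinked partner end. Among the 8 hexose transporters 0 had such an interacting partner end, and 2, ght1 and ght2, had a de-crosslinked one. The events under 5 kb that reached ght6 and ght5 are not among these. Among 16 genes of glucose sensing and repression, scr1, for a repressor of glucose-repressed genes, had an interacting one. The de-crosslinked library had 3 of these, namely scr1, git3, for the glucose receptor, and ssn6, for a corepressor. Of 16 enzyme genes of glucose metabolism, 0 and 2 had one, with gpm1 and eno101 in the de-crosslinked library. The de-crosslinked shares of these 3 lists, 25%, 18.75% and 12.5%, lay above that of all genes, on 2 or 3 genes each and with no test. The interacting shares were 0%, 6.25% and 0%. The share of all genes is not matched for density of ends. Of the genes joined in the de-crosslinked library, ssn6 and ght1 overlap hotspots and eno101 lies next to one, whereas ght2, scr1, git3 and gpm1 do not. The 13 linear element, recombination and cohesin genes had 0 in both, and a count of 0, with the same limit of 3 counts, allows up to 1.85% of interacting and 0.904% of de-crosslinked events. Of 10 loci listed because they are known hotspots or stress genes, gti1, esc1, ste7 and atf1 had an interacting partner end, and ste11, gti1, gsf1, hsr1 and mug115 a de-crosslinked one.

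Shares of partners were also given for each kb of the locus, with events placed by the median of their copies. Near partners made up 11.4% of 70 interacting events in the first kb, 15.1% of 53 in the second and 10.3% of 39 in the third. Among de-crosslinked events they made up 3.40% of 147, 4.03% of 124 and 1.64% of 61. Partners on chromosomes I and II made up 75.7%, 67.9% and 64.1% of the interacting events in the same order, and 78.9%, 80.6% and 88.5% of the de-crosslinked events. The intervals of the 3 kb overlap in each library for both shares, and the difference between the kb was not tested.

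The near share of the locus was within the range of other hotspots. The other 19 largest had 10.4% (259 of 2502 interacting events, 9.18 to 11.6) and 2.35% (134 of 5694 de-crosslinked events, 1.98 to 2.78). The locus stood 1.99 points (two-sided Fisher's exact test, p = 0.426, adjusted p = 0.639) and 0.960 points (p = 0.266, adjusted p = 0.592) above them. With every pair counted it stood 8.81 points above them in the interacting library (Fisher's exact test, p = 2.65e-05), where copies count as separate pairs. The rest of chromosome III had 12.3% of 6426 interacting and 3.26% of 10016 de-crosslinked events, from which the locus differed by 0.0674 and 0.0485 points (Fisher's exact test, adjusted p = 1 and 0.985). The log2 odds ratio of near events, interacting over de-crosslinked, was 2.04 ± 0.56 for the locus (counting SE), 2.26 ± 0.16 for the other hotspots and 2.05 ± 0.10 for the rest of chromosome III. The locus less the other hotspots was -0.22, with a 95% interval from -1.36 to 0.92, so a difference within these bounds could not be detected.

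**Figure D4:**
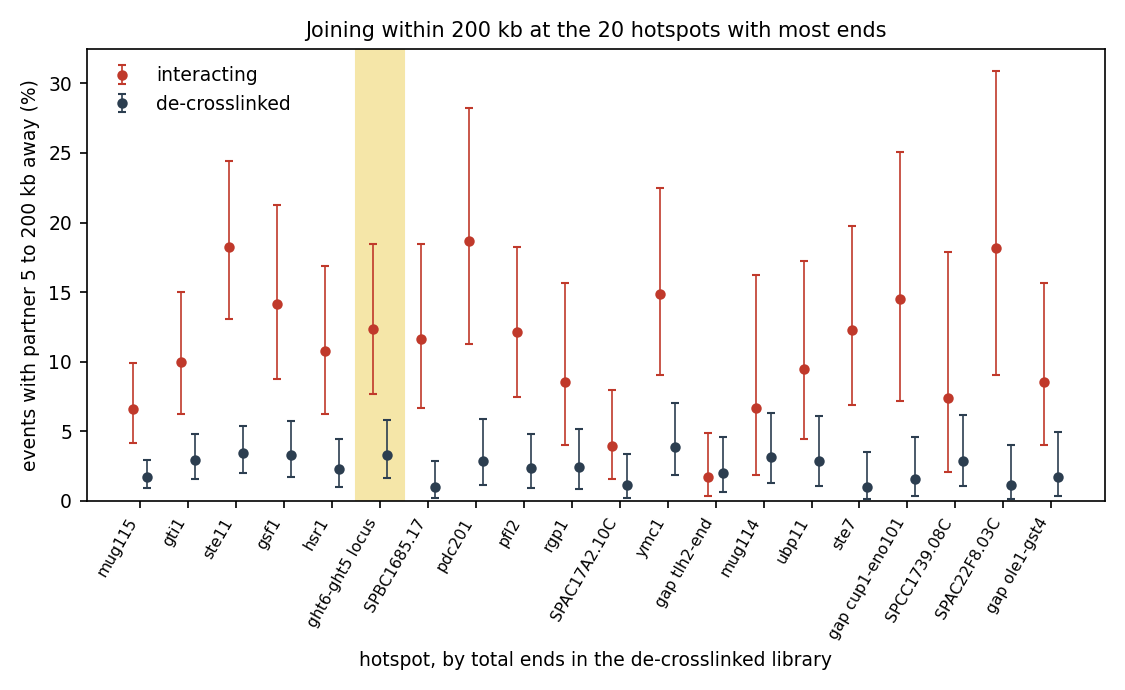
Share of ligation events with a partner 5 to 200 kb away at each of the 20 hotspots with most ends, in order of de-crosslinked ends, for the interacting (red) and de-crosslinked (dark) libraries. Points are percent with 95% Clopper-Pearson intervals, and the yellow band marks the locus. Its 12.3% and 3.31% lie inside the ranges of the other 19, which are 1.69 to 18.7% and 0.980 to 3.88%.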

How the data were processed

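Each deposited table of a Rec27-GFP library holds 1 line per pair of ligated ends, with chromosome, position and class (hot or cold) of both ends, per the file headers. The submitters' processing notes name CASAVA 1.8.0. Aligner, genome build and the definition of hot and cold are not given in the sources used here. Positions were therefore checked against ASM294v3, in which 468626 bp lie in no unique 50 bp word. These bases held 0 ends of either library as deposited, and 1239 (interacting) and 1221 (de-crosslinked) with positions shifted by -100 bp.

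Lines were counted without scaling, in Python 3.11.15 with pandas 2.3.3 and scipy 1.17.1. Events were formed by single linkage within 500 bp at both ends over each whole library, and an event lies at the median of its copies. The linking was run on simulated pairs with evenly spread partners and tight copies. Such pairs cannot show how far it chains junctions in a dense region. The libraries held 2.87 (interacting) and 2.20 (de-crosslinked) pairs per event, and 1 end each in the deleted rec12. For the rest of chromosome III, an event was counted where its first listed end lies there. Shares were compared by two-sided Fisher's exact tests with Benjamini-Hochberg adjustment over 9 tests. The 2 tests of hot partners against other hotspots and the purine counts, with limits of 70% and 8 bases, were added after the data were seen.

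Named partner genes lie at events 5 to 50 kb away, in 10 kb windows with 3 or more events, at the other 19 largest hotspots, in the fixed lists or at the 3 events with most pairs (4 with a tie). Only hem15 is named outside this rule, after its value was seen. Genes were matched by symbol to RefSeq, where git10 was not found. The locus, the lists and the limits were chosen with earlier results of these data known.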

Additional observations from a re-analysis of the deposited data

How the results depend on the processing

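The higher near share of interacting events kept its direction and an unadjusted p under 0.05 under all 12 alternatives, the highest p being 0.0353 by Fisher's exact test, from 4.40 points (near as 20 to 200 kb) to 19.2 points (exact repeats removed, every pair counted). The between-chromosome difference kept its direction under all 9 alternatives, from -27.8 to -5.69 points. It missed the threshold in the first kb of the locus (-5.69 points) and in the second, which has most de-crosslinked ends (-11.5 points). The difference in hot partners passed the threshold with every pair counted (-12.8 points) and with exact repeats also removed (-13.3 points), and reversed with the locus widened by 1000 bp on each side (3.03 points) and in the first kb (0.018 points). The locus stood 8.81 points above the other hotspots in interacting near share, past the threshold, only with every pair counted. The first and last kb were tried after seeing the data, as was near as 5 to 50 kb against other hotspots, which gave 3.42 points (Fisher's exact test, p = 0.0870). As events, the interacting ends of the locus were 11.1 times the median bin, below the counting interval of 11.2 to 13.5 for all ends. The cause of these changes was not tested. Pairs gather in events, whether as copies of 1 junction or as separate ligations, which was not tested. Tests on pair counts treat them as independent, so their p-values are too small. No paired analysis was possible because the labels give no replicate numbers and each group has 1 library. The 20 interacting and 11 de-crosslinked near events limit what differences from other places could be seen.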

Other observations

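A strand rich in purines or pyrimidines was also found at the centre of other hotspots. For each of the other 19 largest, the 100 bp with most de-crosslinked event ends was read on the plus strand. In 10 of these 19, purines or pyrimidines made up at least 70%, against 1.74% of all 100 bp windows of the genome. The commoner class ranged from 53 to 86%, with a median of 74%, and was 75% at the locus. Purines made up 81% at gti1 and 79% at SPAC17A2.11, and 22% at ste11 and 14% at fhn1, where pyrimidines prevailed. The share was nearer to even at the hotspot of mug115 and esc1 (59% purines) and at gsf1 (42% purines). These stretches were selected on their ends, so no test is given.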
